A study of Macaca mulatta with 24 samples.

Results

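Isolated CpGs are the CpGs that stood alone in the reduced-representation bisulfite sequencing (RRBS) data of rhesus macaque fat. They were chosen by position only, as CpGs of chromosomes 1 to 20 with no other measured CpG within 500 bp on either side. There were 22656 of them, 2.87% of the 790368 CpGs measured on these chromosomes and part of a table of 841143 CpGs. Each measured position counts as a CpG here, so the 2 strands of 1 CpG, 1 bp apart, count separately where both were measured. A lone CpG measured on both strands thus falls among the other CpGs. Methylation was measured in visceral (omental) white adipose tissue (WAT) from 24 female rhesus macaques, with 6 animals in each of 4 groups. The labels give an age of 4 years, and the study's methods an older age at biopsy. All animals carried an implant for 3 years, which held cholesterol in the control (C) and western-style diet (WSD) groups and released testosterone in the T and T+WSD groups. The C and T animals ate monkey chow, and the WSD and T+WSD animals ate a high-fat western-style diet. Each animal gave its own library, so the animal is the replicate. The study chose 6 animals per group as representative of larger groups, and whole tissue was used, so that a change within cells and a change in the mixture of cell types cannot be told apart.

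CpG methylation is the addition of a methyl group to the cytosine of a CpG dinucleotide. In mammals most CpGs are methylated, and the exceptions lie mainly in CpG islands, dense clusters of CpGs that often hold promoters, and at active enhancers. Between these, single CpGs lie far apart in sequence that is mostly methylated in differentiated tissue. RRBS cuts DNA with MspI at CCGG and therefore sees CpG-rich sequence first. An isolated CpG in such data is one for which no neighbour was retained near it. That includes CpGs in CpG-poor sequence and CpGs whose neighbours fell below the coverage minimum, and the table does not separate the 2 cases. No sequence is printed because no genome of the rheMac8 build of the files was used here, and for the same reason no gene is named beside a CpG.

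Each value is a methylation level, the percent of the reads over a CpG that carried the methylated base. The number of reads behind a value is not in the table, so the depth is unknown above the minimum of 10 reads that the authors applied. Per animal, between 717554 and 826713 CpGs had a value. T 16 had the lowest number and the lowest agreement with the other animals at isolated CpGs, where its median r with them was 0.851 against at least 0.879 in the other animals. Animals 1 to 12 are C and T+WSD and animals 13 to 24 are T and WSD. If the numbers followed a batch, it and the comparisons of T or WSD with C cannot be told apart, while T+WSD against C lies within animals 1 to 12. The 3 comparisons share the same C animals.

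Isolated CpGs lay a median of 4500 bp from the nearest measured CpG, and a median of 17065 bp from the nearest one on the far side. The longest distance to the nearest CpG was 285879 bp, and 6747 isolated CpGs (29.8%) had no other CpG within 10000 bp. The other CpGs had a median distance of 9 bp. Isolated CpGs were found on all 20 chromosomes, as 1.73% of the measured CpGs of chromosome 19 and up to 3.70% of those of chromosome 2. In the outer 2 Mb at each end of the measured span of the chromosomes they made up 1.27% of CpGs, against 3.12% in the rest. Their mean level there was 71.5%, against 74.3% in the rest.

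The 3 most remote isolated CpGs show what such a position looks like. The first was on chromosome 9 at position 67404458, 478875 bp and 285879 bp from its neighbours. C animals averaged 91.9% ± 3.58 (SD, n = 6) there and T animals 89.3% ± 3.12 (n = 5). WSD animals averaged 90.2% ± 3.98 (n = 6) and T+WSD animals 86.2% ± 5.18 (n = 5). The second, on chromosome 2 at position 156137782, lay between 70.6% and 95% in all animals. The third, on chromosome 8 at position 109423769, lay between 61.8% and 97.5%. All 3 were mostly methylated in every animal, and the group ranges overlapped at each.

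Isolated CpGs were more methylated than the other CpGs in every animal. Over CpGs with a value in all 24 animals, which were 11400 isolated and 448415 other CpGs, the mean was 72.4% ± 1.001 (SD, n = 24) at isolated and 44.4% ± 0.509 at other CpGs. The difference was 28.1 ± 0.714 percentage points and was positive in 24 of 24 animals (two-sided permutation test by sign changes over animals, p = 1e-05, the smallest that 100000 resamples can give, adjusted p = 1.5e-05 over 3 measures). The mean of isolated CpGs was also above that of other CpGs on 20 of 20 chromosomes, from 69.8% on chromosome 19 to 78.7% on chromosome 5. CpGs nearly free of methylation were rare among them. Of isolated CpGs 3.03% had a mean level under 10%, against 36.4% of other CpGs. Restricted to CpGs with a mean level from 5% to 95%, the difference was 6.85 points.

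The whole distribution differed in shape. At least 80% methylation was found at 12811 isolated CpGs (56.5%) and at 39.9% of other CpGs. Intermediate levels from 20% to under 80% were found at 8573 isolated CpGs (37.8%) and at 20.4% of other CpGs. Under 20% there were 1272 isolated CpGs (5.61%), against 39.7% of other CpGs. The median isolated CpG stood at 83.5%, with quartiles of 63.5% and 92.4%. For other CpGs the median was 59.6% and the quartiles were 2.04% and 91.6%. The CpGs with the nearest at 100 to 500 bp had a like shape, with 9.83% under 20%, 41.4% at intermediate levels and 48.8% at 80% or more.

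**Figure D1:**
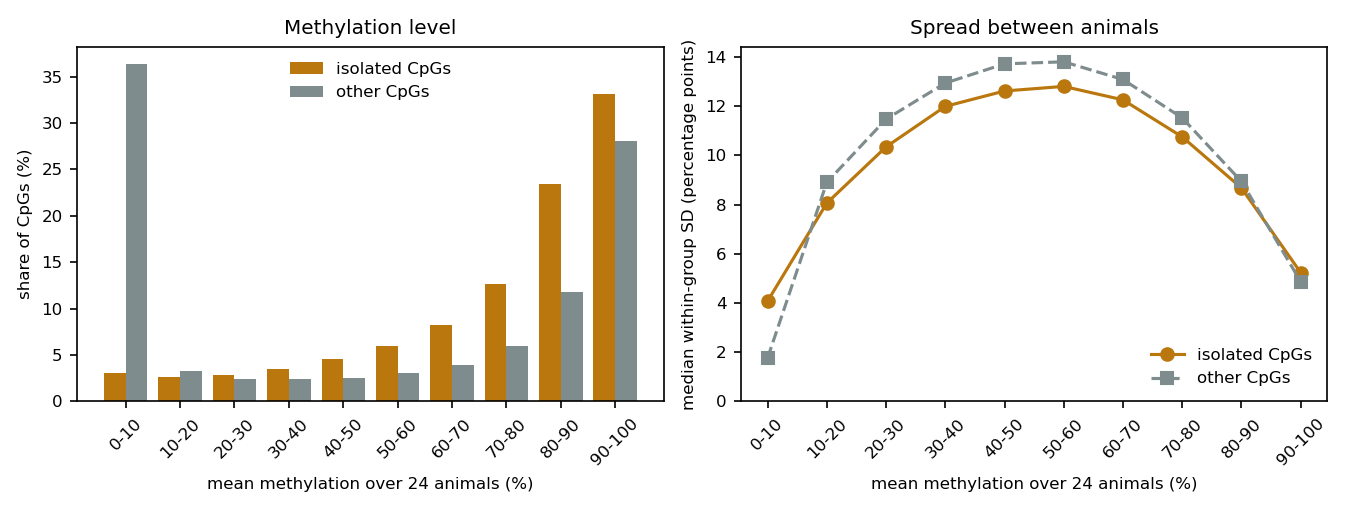
The left panel gives the share of isolated (orange) and other (grey) CpGs of chromosomes 1 to 20 in each class of mean methylation over 24 animals, and the right panel the median within-group SD in percentage points in the same classes. The class from 0% to 10% holds 3.03% of isolated and 36.4% of other CpGs, and between 10% and 90% the SD of isolated CpGs lies below that of other CpGs.

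Levels were then ordered by the distance to the nearest measured CpG. The mean level was 29.8% at 1 to 2 bp and 42.7% at 3 to 10 bp, and it was 69.9% at 50 to 100 bp. In the class of 1 to 2 bp, positions 1 bp apart are the 2 strands of 1 CpG. Longer classes are named by their round limits, the lower limit not included. The mean was 66.3% at 300 to 500 bp, just outside the limit that defines isolated CpGs, and 67.6% at 500 to 1000 bp, just inside it. At the limit itself, 57 isolated CpGs within 10 bp beyond it averaged 67.9% and 63 other CpGs within 10 bp short of it averaged 67.4%, so no step was seen there. Within the isolated CpGs the mean went on from 71.0% at 1000 to 2000 bp and 73.9% at 2000 to 5000 bp to 78.2% beyond 20000 bp. The share under 20% went from 10.8% at 500 to 1000 bp to 3.14% beyond 20000 bp. The CpGs most like the isolated ones, 13269 with the nearest CpG at 100 to 500 bp, stood 5.20 points below them (lower in 24 of 24 animals, permutation p under 100000 sign changes, adjusted p = 3e-05).

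The level of an isolated CpG went with that of its nearest measured CpG only at short range. Where the nearest CpG was under 20% and lay 500 to 1000 bp away, 485 isolated CpGs had a mean of 43.5%, and 36.9% of them were under 20% themselves. At the same distance from a CpG over 80%, 1345 isolated CpGs had a mean of 76.6%, and 3.49% of them were under 20%. At 1000 to 2000 bp the mean was 58.7% beside an unmethylated CpG and 76.0% beside a methylated one. At 2000 to 5000 bp it was 70.7% and 76.7%, and beyond 5000 bp 76.4% and 78.2%. The lower level beside unmethylated CpGs was thus clearest within 2000 bp. At 1 bp the nearest position is the other strand of the same CpG. Pearson's r between the level of a CpG and that of its nearest was 0.984 over CpGs at 1 to 2 bp and 0.628 over 1968 CpGs at 300 to 500 bp. Over isolated CpGs it was 0.434 at 500 to 1000 bp (2767 CpGs), 0.114 at 2000 to 5000 bp (5575 CpGs) and 0.0254 beyond 20000 bp (3626 CpGs). These are descriptions across CpGs that come from the same libraries.

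Deviations of single animals were also set against those at the nearest CpG, by an r that is not comparable with the r of levels. For pairs of intermediate level (both between 20% and 80%), each animal's deviation from its group mean was correlated between a CpG and its nearest over at least 20 animals. The median r was 0.495 at 1 to 2 bp (9828 CpGs), where the 2 strands of 1 CpG can form a pair, and higher, at 0.623, at 3 to 10 bp (33365). From there it fell to 0.329 at 50 to 100 bp (7635), 0.127 at 100 to 300 bp (2201) and 0.0703 at 300 to 500 bp (312). For isolated CpGs it was 0.0791 at 500 to 1000 bp (395) and between 0.00847 and 0.0468 in the classes beyond 1000 bp. These pairs are the isolated CpGs of intermediate level with an intermediate neighbour, and the others were not examined in this way. The low r began short of the limit of 500 bp. Counting error is not shared by CpGs on different reads and is part of every such deviation, and its part in the fall of r was not tested.

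**Figure D2:**
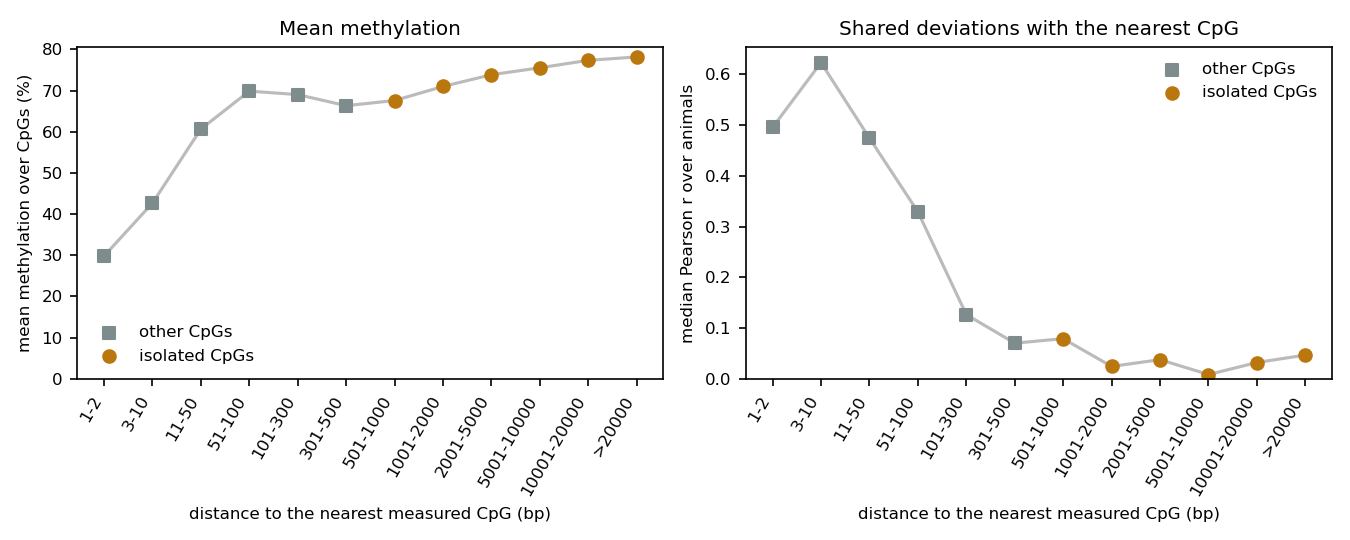
Both panels have the distance to the nearest measured CpG in bp on the horizontal axis, with other CpGs as grey squares and isolated CpGs as orange circles. The mean methylation over CpGs (left) reaches 78.2% beyond 20000 bp, and the median r of animal deviations with the nearest CpG (right) is 0.0791 at 500 to 1000 bp and at most 0.0468 beyond 1000 bp.

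The spread between animals depended on the level. Without regard to level, isolated CpGs scattered more than other CpGs, by 2.13 points, and few of them were near 0%. Weighted over matched levels they scattered less. The mean absolute deviation of an animal from the median of the other animals of its group was 7.01 ± 0.704 points (SD, n = 24) at isolated CpGs and 7.70 ± 0.855 at other CpGs weighted to the same levels. The difference was −0.689 ± 0.282 points and was negative in 24 of 24 animals (permutation p = 1e-05 over sign changes, the smallest possible, adjusted p = 1.5e-05). With all CpGs that had a value in the animal it was −0.420 points, and with mean levels from 5% to 95% −0.977 points. Between 50% and 60%, where the spread was widest, the median within-group SD was 12.8 points for 1359 isolated and 13.8 points for 23210 other CpGs. Under 10% it was 4.07 for isolated and 1.77 for other CpGs, whose mean levels in that class were 4.54% and 1.80%. From 90% to 100%, the class of 33.1% of isolated CpGs, it was also higher for isolated CpGs, at 5.23 against 4.87, with mean levels of 94.4% and 95.03%. Against the CpGs at 100 to 500 bp the difference in scatter was 0.0217 points (permutation p over sign changes, adjusted p = 0.679), so the lower scatter was not particular to the isolated CpGs.

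Isolated CpGs also lacked values more often. The share without a value was 6.06% ± 2.63 (SD, n = 24) at isolated and 4.47% ± 2.91 at other CpGs. The difference was 1.59 ± 1.91 points and was positive in 21 of 24 animals (permutation p = 5e-04 over sign changes, adjusted p = 5e-04). T 16, C 5 and T+WSD 12 were the exceptions, and without T 16 the difference was 1.83 points. Of isolated CpGs 50.3% had a value in all animals, against 58.4% of all other CpGs and 55.2% of those with the nearest at 100 to 500 bp. By distance, values were lacking at 4.94% for 100 to 300 bp, 5.60% for 300 to 500 bp and 6.04% for 500 to 1000 bp.

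Large ranges between animals were found at single isolated CpGs. At chromosome 1 position 39041109 the C animals had between 5.26% and 97.5% with a median of 93.6%. T animals there had between 0% and 96.6%, WSD animals between 0% and 96.7%, and T+WSD animals between 0% and 100%. Each group thus held animals near 0% and animals near full methylation. This CpG resembled a genotype, which was defined as a CpG with every animal within 15 points of 0%, 50% or 100% and with at least 2 of these levels held by 2 or more animals. There were 14 isolated CpGs (0.0618%) that met that definition, against 0.276% of all other CpGs and 0.0528% of those with the nearest at 100 to 500 bp. The other 2 CpGs with a range of 100 points did not. They lay on chromosome 10, at position 23716681 with group means between 41.1% and 62.6%, and at position 73863566 with group means between 23.2% and 65.2%.

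The groups were first compared by the mean over isolated CpGs, to ask whether either treatment or both together shifted sparse methylation. In C the 6 animals had between 72.9% and 74.6%, with a median of 73.3%. T animals had between 71.1% and 73.0% with a median of 71.8%. WSD animals had between 70.1% and 73.0% with a median of 72.6%, and T+WSD animals between 71.3% and 72.7% with a median of 72.1%. All T+WSD animals lay below all C animals, whereas T 15 and WSD 21 reached above the lowest C animal.

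All 3 treated groups had lower methylation than C at isolated CpGs. C averaged 73.6% ± 0.685 (SD, n = 6) and T 71.9% ± 0.667, while WSD averaged 72.2% ± 1.06 and T+WSD 72.0% ± 0.583. T differed from C by −1.70 points (exact permutation test, two-sided, p = 0.00433, with an adjusted p of 0.00577 over 4 comparisons). The difference was −1.39 points for WSD (exact p = 0.00433, adjusted p = 0.00577) and −1.57 points for T+WSD (exact p = 0.00216, the smallest that 924 splits allow, adjusted p = 0.00577). At the other CpGs the differences were −0.510 points for T (exact p = 0.0325), −0.218 for WSD (exact p = 0.511) and −0.569 for T+WSD (exact p = 0.0498), with adjusted p from 0.0996 to 0.681. The treated groups were lower than C on 20 of 20 chromosomes in each comparison, chromosomes that come from the same animals. The largest difference of a chromosome was −2.05 points, for T on chromosome 20, and the smallest −0.566, for T+WSD on chromosome 17.

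**Figure D3:**
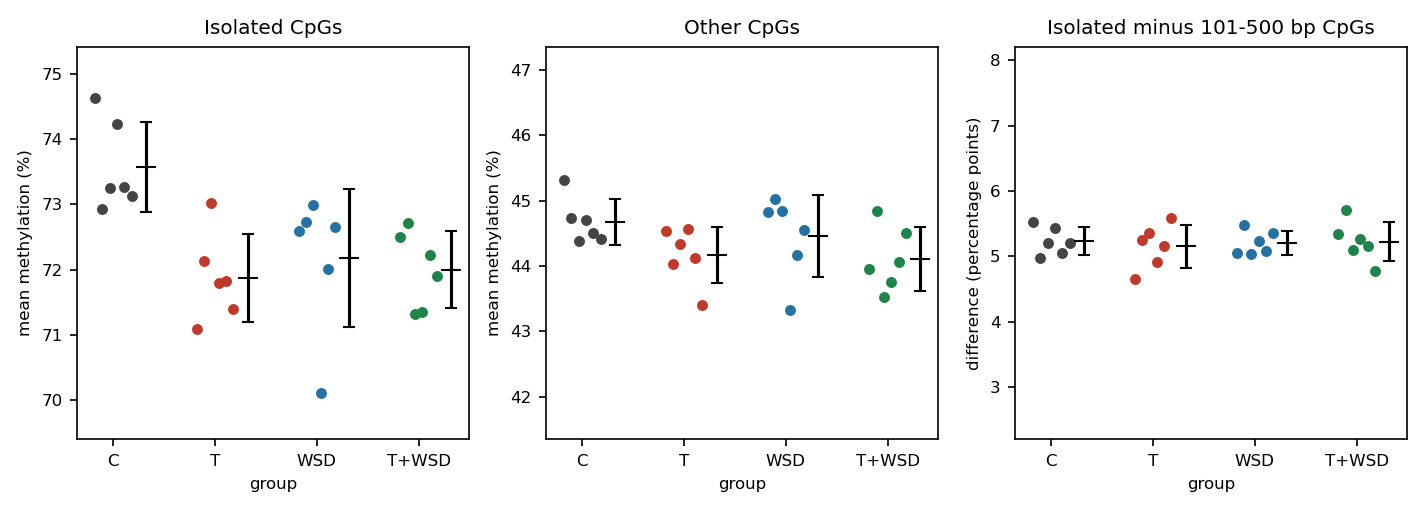
Each point is 1 animal, grouped as C, T, WSD and T+WSD, with the mean ± SD (n = 6) beside it, and the 3 panels have axes of equal length in percentage points. Mean methylation of isolated CpGs (left) is lower in the treated groups than in C, that of other CpGs (middle) differs less, and the difference of isolated CpGs from those at 100 to 500 bp (right) is alike in all groups, at 5.15 to 5.23 points.

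The difference was larger at isolated CpGs than at the other CpGs. C animals had a gap between isolated and other CpGs of 28.9 ± 0.474 points (SD, n = 6). The gap was 27.7 ± 0.743 points for T, 27.7 ± 0.492 for WSD and 27.9 ± 0.410 for T+WSD. Against C it changed by −1.19 points with T (exact p = 0.00433), −1.17 with WSD (exact p = 0.00216) and −1.001 with T+WSD (exact p = 0.00433), each with an adjusted p of 0.00577. With the other CpGs weighted to the levels of the isolated ones, the change was smaller, at −0.741 points with T (exact p = 0.0628, adjusted p = 0.0837), −0.788 with WSD (exact p = 0.00866, adjusted p = 0.0173) and −0.292 with T+WSD (exact p = 0.271, adjusted p = 0.271).

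It was not shown to be larger than at CpGs with a neighbour 100 to 500 bp away. These had differences from C of −1.62 points for T, −1.36 for WSD and −1.56 for T+WSD. Isolated CpGs stood above them by 5.23 ± 0.213 points (SD, n = 6) in C animals, 5.15 ± 0.330 in T animals, 5.20 ± 0.187 in WSD animals and 5.23 ± 0.305 in T+WSD animals (exact p from 0.621 to 0.965 over the 3 comparisons). By distance class, the T+WSD difference was −0.0348 ± 0.300 points (standard error) at 1 to 2 bp, −0.949 ± 0.240 at 11 to 50 bp and −1.54 ± 0.320 at 50 to 100 bp. In the 6 classes of isolated CpGs it lay between −1.45 and −1.75 points. For T the isolated classes lay between −1.57 and −1.89 points, and for WSD between −1.27 and −1.48 points. At 50 to 100 bp T differed by −1.36 ± 0.317 points and WSD by −1.003 ± 0.418, less than in the isolated classes. At 300 to 500 bp, just outside the limit, T differed by −1.41 ± 0.318, WSD by −1.29 ± 0.505 and T+WSD by −1.45 ± 0.242, and from there to 500 to 1000 bp each moved by less than its standard error.

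**Figure D4:**
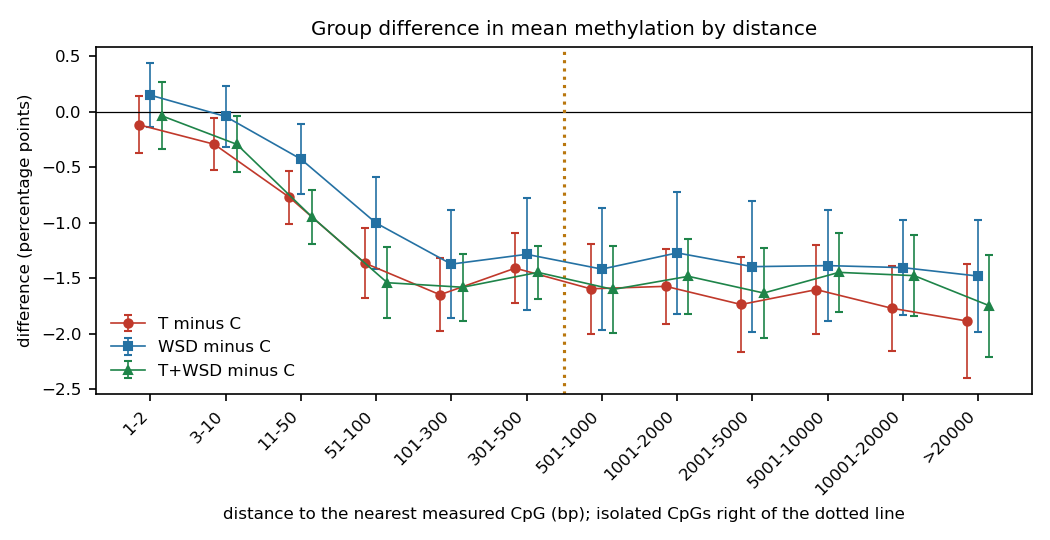
The difference in mean methylation from C, in percentage points with its standard error (n = 6 per group), is plotted for T, WSD and T+WSD against the distance to the nearest measured CpG in bp. It lies near 0 for measured positions within 2 bp of another and between −1.27 and −1.89 points in all classes of isolated CpGs, right of the dotted line.

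Isolated CpGs of intermediate level differed most. Classes of level were formed from the mean over all animals after the first result had been seen. At 4587 isolated CpGs between 20% and 80% the mean was 59.9% ± 0.861 (SD, n = 6) in C and 57.3% ± 0.954 in T, a difference of −2.63 points (exact p = 0.00216, adjusted p = 0.00649 over 9 tests). WSD differed there by −2.19 points (exact p = 0.00433, adjusted p = 0.00974) and T+WSD by −2.22 points (exact p = 0.00216, adjusted p = 0.00649). Other CpGs of this class differed by −1.40 points for T, −0.801 for WSD and −1.60 for T+WSD. At 6090 isolated CpGs over 80% the mean in C was 91.4% ± 0.711. The differences were −1.13 points in T (exact p = 0.0130, adjusted p = 0.0234), −0.930 in WSD (exact p = 0.0325, adjusted p = 0.0487) and −1.35 in T+WSD (exact p = 0.00216, adjusted p = 0.00649). Other CpGs over 80% differed by −0.591 points for T, −0.433 for WSD and −0.933 for T+WSD. At 723 isolated CpGs under 20% the differences were −0.650 points for T, −0.242 for WSD and 0.668 for T+WSD, with adjusted p from 0.144 to 0.606. Other CpGs under 20% differed by −0.0453 points for T, 0.211 for WSD and 0.175 for T+WSD. Intermediate levels thus differed most among the other CpGs too, and the difference between classes was not tested.

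The interaction asks if T acted alike on both diets. At isolated CpGs the effect of T on WSD minus its effect on chow was 1.52 points (permutation p = 0.0611 over 100000 resamples, adjusted p = 0.0611). The permutations for the interaction shuffled all 24 animals over the 4 groups. Their p-values therefore refer to no effect of any kind, not to equal effects of T on both diets alone. The means of the 3 treated groups lay between 71.9% and 72.2%. The gap between isolated and other CpGs had an interaction of 1.36 points (permutation test, p = 0.0154, with an adjusted p of 0.0154). It was 1.24 points for the gap to level-matched other CpGs (permutation p = 0.00469, adjusted p = 0.0173) and 0.107 points for the gap to CpGs at 100 to 500 bp (permutation p = 0.612, adjusted p = 0.965). With all CpGs that had a value in the animal, the interaction of the gap to other CpGs was 0.832 points. It then no longer passed the threshold (permutation test, adjusted p = 0.145). The interaction sets animals 1 to 12 against animals 13 to 24, so a batch along the numbers and the interaction cannot be told apart.

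The main effects, which are balanced over both series of numbers, were tested as an addition chosen with the data in view. Averaged over both diets, isolated CpGs differed with T by −0.938 points (permutation p = 0.0134 within diets, adjusted p = 0.0268 over 2 effects). On chow the means were 73.6% in C and 71.9% in T. On the western-style diet they were 72.2% in WSD and 72.0% in T+WSD, so the averaged difference lay mostly in the animals on chow. The other CpGs differed with T by −0.431 points (permutation p = 0.0382, adjusted p = 0.0764). The gap between both changed by −0.507 points (permutation p = 0.0656, adjusted p = 0.0738), and the gap to CpGs at 100 to 500 bp by −0.0293 points (permutation test, adjusted p = 0.838), so the effect of T was not shown to be particular to isolated CpGs. With WSD isolated CpGs differed by −0.632 points (permutation p = 0.0793, adjusted p = 0.0793), and T+WSD did not stand below T. The main effect of T was −0.858 points without WSD 21 (permutation test, adjusted p = 0.0558), −0.870 without T+WSD 9 (adjusted p = 0.0544) and −0.874 without T+WSD 10 (adjusted p = 0.0538), so its size changed little while the call was lost. C animals lacked a value at 5.54% ± 3.22 (SD, n = 6) of isolated CpGs, T animals at 7.26% ± 2.95, WSD animals at 6.59% ± 2.62 and T+WSD animals at 4.85% ± 1.37, and the part of these gaps in the differences was not tested.

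Single isolated CpGs were then tested. A differentially methylated CpG (DMC) had an adjusted p under 0.05 in limma, fitted to all CpGs of the table, and a difference over 10 points. T against C gave 0 DMCs among isolated CpGs (0.00559% of the whole table), where 1763 had an unadjusted p under 0.05 (7.78%, against 5.58% of the whole table). The smallest adjusted p of an isolated CpG in T was 0.111 (limma). WSD gave 1 DMC (0.00441%, against 0.00559% of the whole table) and T+WSD gave 2 (0.00883%, against 0.0069%). Both counts were 0 with rates taken as log-ratios. Without single animals they were 0 to 2 for WSD and 0 to 3 for T+WSD. Counts this small show no difference from the background. An isolated CpG cannot enter a differentially methylated region of 2 or more CpGs joined within 300 bp, so the single-site test is the only one open to it. The main effect of T gave 0 DMCs (0% of the whole table in limma), with 1737 isolated CpGs at an unadjusted p under 0.05 (7.67%, against 5.89%). The main effect of WSD gave 0 (0.000357% of the whole table), with 2170 at an unadjusted p under 0.05 (9.58%, against 7.07%).

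An unadjusted p under 0.05 was found at 1895 isolated CpGs for WSD (8.36%, against 6.28% of the whole table) and at 2415 for T+WSD (10.7%, against 7.61%). A difference over 10 points was found at 2748 for T (12.1%, against 7.82%), at 2912 for WSD (12.9%, against 8.07%) and at 3400 for T+WSD (15.01%, against 9.51%). Of these, 2053 were lower in T (9.06%, against 4.97%), 1994 in WSD (8.80%, against 4.61%) and 2313 in T+WSD (10.2%, against 5.93%). Gains over 10 points were found at 695 for T (3.07%, against 2.85%), 918 for WSD (4.05%, against 3.46%) and 1087 for T+WSD (4.80%, against 3.58%). Most isolated CpGs below the DMC threshold that met these rules were lower in the treated group. An unadjusted p under 0.05 with lower methylation was found in T at 1329 isolated CpGs (5.87%, against 3.51% of the whole table), in WSD at 1296 (5.72%, against 3.34%) and in T+WSD at 1702 (7.51%, against 4.73%). With higher methylation there were 434 in T (1.92%, against 2.07%), 599 in WSD (2.64%, against 2.94%) and 713 in T+WSD (3.15%, against 2.88%). The median difference over all isolated CpGs was −1.27 points for T, −0.982 for WSD and −1.38 for T+WSD, against −0.0367, 0 and −0.0133 at the other CpGs. The table is no match in level, since a loss of 10 points is not possible at the many other CpGs under 10%, so these shares say nothing particular of isolated CpGs. Among CpGs with the nearest at 100 to 500 bp, a comparison added with the data in view, an unadjusted p with lower methylation was about as frequent, at 5.53% for T, 5.53% for WSD and 7.50% for T+WSD. Losses over 10 points were so too, at 8.76%, 8.73% and 10.6% of them. Among the 11400 isolated CpGs with a value in all animals, the 2 groups did not overlap at 37 for T (0.325%, against 0.217% of all such CpGs), at 45 for WSD (0.395%, against 0.274%) and at 150 for T+WSD (1.32%, against 0.645%). Of these 150, 59 were higher (0.518%, against 0.212%) and 91 lower (0.798%, against 0.433%) in T+WSD. For this rule no share was taken at matched levels or at 100 to 500 bp, so these shares too say nothing particular of isolated CpGs.

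In T+WSD against C the 2 DMCs are described first. Their calls depended on the processing, with a count of 0 for the log-ratio and of 0 to 3 without single animals. On chromosome 4 at position 40215033, C animals had between 36.8% and 50.6% with a median of 41.7%, and T+WSD animals between 58.9% and 76.8% with a median of 72.7%. The means were 42.9% ± 4.68 (SD, n = 6) and 70.5% ± 7.06, a difference of 27.6 points (limma, adjusted p = 0.0364). T at 58.0% ± 5.44 and WSD at 57.0% ± 11.2 stood between them. The nearest measured CpG, 2291 bp away, had a mean level of 89.1%.

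On chromosome 10 at position 77516838, C animals had between 51.8% and 70.2% with a median of 61.1%, and T+WSD animals between 33.9% and 48.0% with a median of 40.6%. The difference was −20.8 points (limma, adjusted p = 0.0402), and T at 50.8% ± 5.40 (SD, n = 6) and WSD at 49.2% ± 5.54 again stood between. At both DMCs every T+WSD animal lay beyond every C animal.

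The largest gain and loss without overlap that were not DMCs had larger differences, of 32.9 and −32.4 points. On chromosome 19 at position 875535, C was at 31.5% ± 6.78 (SD, n = 6) and T+WSD at 64.4% ± 10.4 (limma, adjusted p = 0.0825). T and WSD, at 38.9% ± 9.03 and 40.6% ± 12.97, stood close to C. On chromosome 12 at position 99830302, C was at 89.9% ± 7.74 and T+WSD at 57.5% ± 11.4 (limma, adjusted p = 0.108). T and WSD were at 71.8% ± 12.9 and 76.2% ± 12.6 there.

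In WSD against C the DMC was on chromosome 1 at position 7219053. The count for WSD was 0 with the log-ratio and 0 to 2 without single animals. C animals had between 76.5% and 95.7% with a median of 84.1%, and WSD animals between 51.5% and 63.4% with a median of 56.8%. The difference was −27.2 points (limma, adjusted p = 0.0221). T at 65.7% ± 7.98 (SD, n = 6) and T+WSD at 62.2% ± 7.80 were also below C, and all treated animals lay below the lowest C animal, which had 76.5%. Its nearest measured CpG, 1434 bp away, stood at 93.9%.

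Without reaching the threshold, chromosome 13 position 47755393 had 40.6% ± 14.9 (SD, n = 6) in C and 77.3% ± 11.7 in WSD (limma, adjusted p = 0.225). Chromosome 4 position 12157151 had 37.1% ± 12.2 and 60.8% ± 7.71 (adjusted p = 0.320), and T+WSD stood at 68.5% ± 7.61 there. Chromosome 15 position 26722463 had 73.3% ± 14.5 in C and 33.6% ± 5.54 in WSD (adjusted p = 0.225). The last was the largest difference of all named CpGs, and T and T+WSD, at 50.01% ± 19.2 and 52.8% ± 13.02, stood between C and WSD.

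In T against C the named CpGs did not reach the threshold. Gains were on chromosome 2 at position 69519749, with 32.5% ± 8.10 (SD, n = 6) in C and 54.7% ± 7.49 in T (limma, adjusted p = 0.534), and on chromosome 16 at position 17914995, with 14.7% ± 7.12 and 32.8% ± 6.98 (adjusted p = 0.882). The first lies 510 bp from a CpG at 5.28%. Losses were on chromosome 7 at position 63072333, with 68.2% ± 14.1 in C and 39.0% ± 6.32 in T (adjusted p = 0.678), and on chromosome 20 at position 51737778, with 63.2% ± 7.42 and 34.9% ± 7.72 (adjusted p = 0.112). At all 4 the groups did not overlap, by the way they were chosen.

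**Figure D5:**
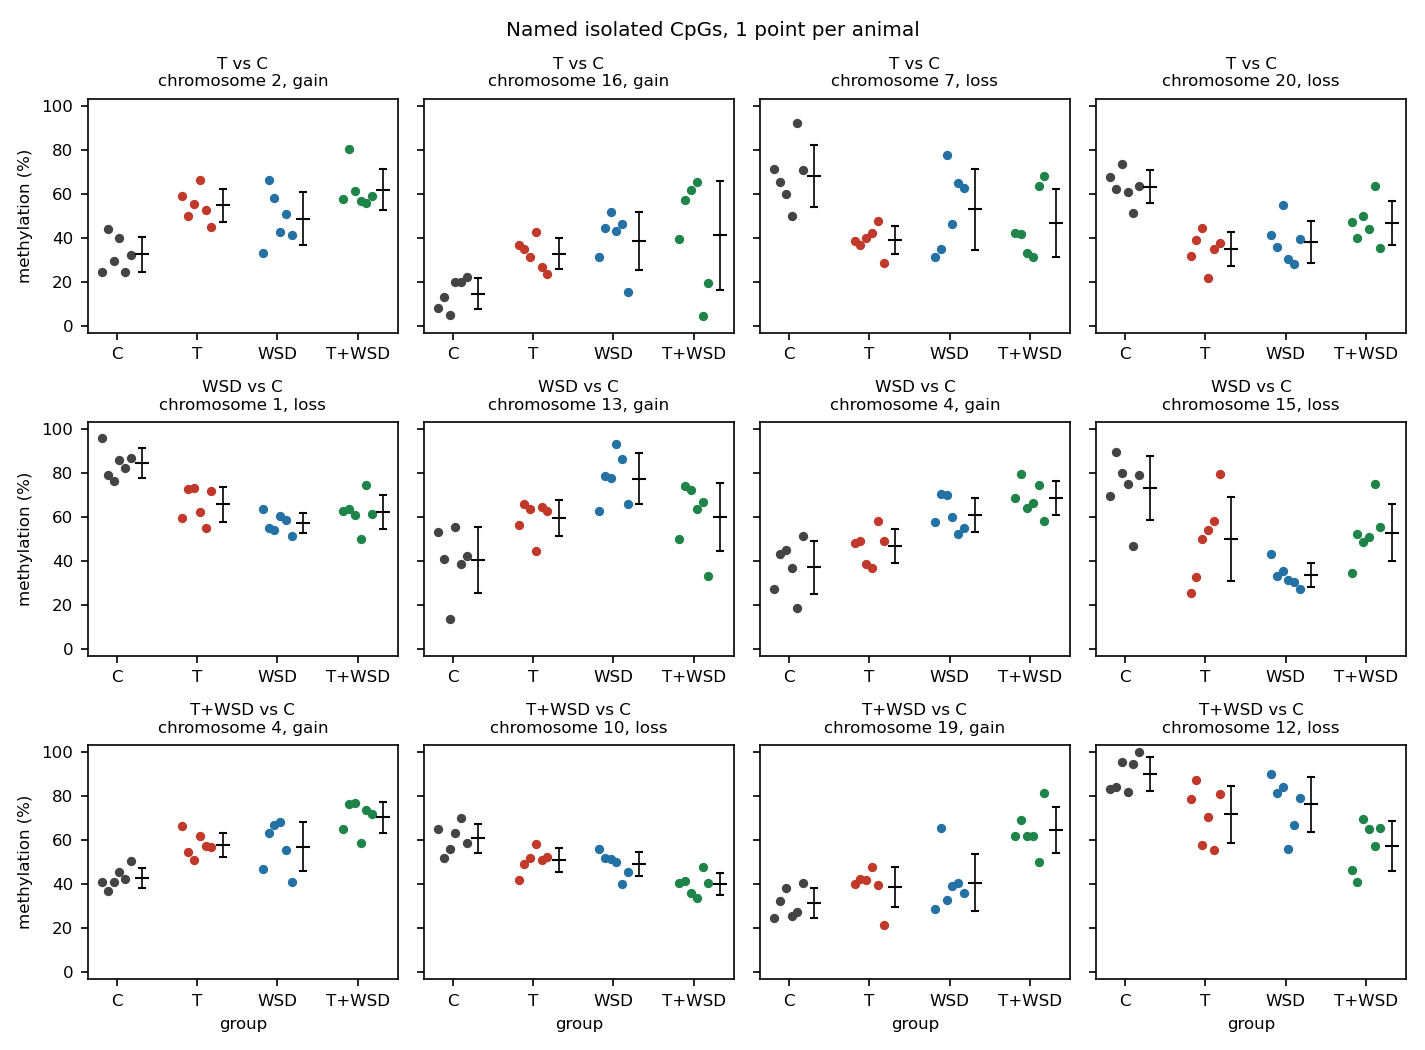
Percent methylation of the 12 named isolated CpGs is plotted for 1 point per animal with the mean ± SD (n = 6) of each group beside it, and each panel names the comparison that chose the CpG, its chromosome and the direction. At each CpG the group named and C do not overlap, such as 58.9% to 76.8% in T+WSD against 36.8% to 50.6% in C on chromosome 4.

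The interaction gave 1 DMC among isolated CpGs (0.00441%, against 0.0174% of all CpGs tested), which is named after its values were seen. This count was 0 with untransformed percent, 2 with the log-ratio and 0 to 2 without single animals. An unadjusted p under 0.05 was found at 1517 (6.70%, against 5.42%). On chromosome 18 at position 64795302 the value was 100% in the 4 T animals that had one, while C animals had between 86.4% and 96.3% (n = 5). WSD animals there had between 94.1% and 100% (n = 5) and T+WSD animals between 94.1% and 96.0% (n = 6). The interaction was −12.3 points (limma, adjusted p = 0.0348). The 4 equal values leave T with no spread at this CpG, and 4 of the 24 animals have no value there.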

How the data were processed

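The authors' reads were trimmed by Trim Galore 0.4.2, run for RRBS, and placed on rheMac8 by Bismark 0.16.1. The values the authors deposited are percent methylation per CpG and animal, for CpGs with at least 10 reads in at least 4 animals of each group, and a missing value stayed missing. Positions are as in the deposited table. CpGs of chromosomes 1 to 20 were split by the distance to the nearest other row of the table. The 2 strands of 1 CpG were not merged. Means per animal used CpGs with a value in all 24 animals. They were compared by exact permutation over 924 splits of 6 against 6, with Benjamini-Hochberg adjustment over 4 comparisons, and by sign changes within animals (100000 resamples, 3 measures). The animal numbers differ between groups and pair no animals.

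The test for DMCs was limma 3.58.1 (R 4.3.3) on arcsine-transformed rates, with all 4 groups and all 841143 CpGs in the fit and Benjamini-Hochberg adjustment over them. The alternatives used a refit in Python 3.11.15 (numpy 2.4.6 and scipy 1.17.1), tested on simulated data, and its calls were the same as those of limma in 6 contrasts. Named CpGs were the DMCs of each comparison with C, filled up to 2 gains and 2 losses by the largest differences without overlap between the groups. The 3 most remote CpGs and the 3 of largest range were added. The members, lists and tests were chosen with earlier results of these data known. Animals may share further sources of variation that the labels do not give, and p-values measure the spread between these animals.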

Additional observations from a re-analysis of the deposited data

Results flagged for a closer look

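Among 100 groups of values examined, 10 had an animal far from the others of its group, where chance gives about 5. WSD 22 had a mean of 70.1% at isolated CpGs, against 72.0% to 73.0% in the other WSD animals, and a gap to the other CpGs of 26.8 points, against 27.7 to 28.1. It also lacked a value at 11.6% of isolated CpGs, against 4.50% to 7.11%. Without it the WSD difference was −0.980 points. T 16 had a difference in scatter from the other CpGs of −1.70 points, against −0.675 to −0.430 in the other T animals. Its difference in missing values was −4.00 points, against 1.95 to 3.74.

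At single CpGs, T+WSD 8 had 80.5% on chromosome 2 at position 69519749, against 55.8% to 61.1% in its group. On chromosome 19 at position 875535, T 18 had 21.4% (against 39.6% to 47.8%) and WSD 20 had 65.6% (against 29.0% to 40.7%). T 17 had 0% on chromosome 1 at position 39041109, against 60.7% to 96.6%, and WSD 20 had 0% on chromosome 10 at position 23716681, against 38.7% to 57.1%.

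The interaction term passed the threshold for the gap between isolated and other CpGs (1.36 points) and at chromosome 18 position 64795302 (−12.3 points). That of the gap passed also against level-matched CpGs (1.24 points) and with levels from 5% to 95% (1.39 points). It was lost with all CpGs that had a value and against CpGs at 100 to 500 bp, and the interaction and a batch along the animal numbers cannot be told apart.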

How the results depend on the processing

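The lower mean of isolated CpGs in each treated group kept its direction and its side of the threshold in all alternatives, which were isolation distances of 250 and 1000 bp, removal of genotype-like CpGs, a level filter, all CpGs with a value in the animal, and the omission of each animal. Without single animals the difference was −1.93 to −1.49 points in T, −1.55 to −0.980 in WSD and −1.71 to −1.36 in T+WSD. No paired analysis was possible because the animal numbers differ between the groups. The depth behind the values is unknown, so a higher coverage minimum was not tried.

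The gap between isolated and other CpGs was more dependent on the CpGs compared, and the cause was not tested. With levels from 5% to 95% its difference from C was −0.949 points in T (adjusted p = 0.0664 by exact permutation) and −0.622 in T+WSD (adjusted p = 0.0779). With other CpGs weighted by level it was −0.741 and −0.292. Against CpGs at 100 to 500 bp, chosen after seeing the data, it was −0.0827 in T, −0.0311 in WSD, −0.00692 in T+WSD and 0.107 for the interaction, and the main effect of WSD was 0.0224. With all CpGs that had a value the interaction was 0.832 and no longer passed the threshold (permutation test, adjusted p = 0.145), and the main effects passed the threshold at −0.522 for WSD and −0.581 for T. The difference in scatter was 2.13 points without matching of levels and 0.0217 against CpGs at 100 to 500 bp. Without single animals the interaction at isolated CpGs was 1.11 to 1.75 points, and it passed the threshold without C 2, T 15, WSD 21, T+WSD 9 or T+WSD 10. The main effects there were −0.713 to −0.426 for WSD, which passed without T 13 or T+WSD 8, and −1.14 to −0.833 for T. Those of the gap were −0.610 to −0.396 for WSD, which passed without T 13 or T+WSD 7, and −0.605 to −0.391 for T, which passed without WSD 22 or T+WSD 7.

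DMC counts of isolated CpGs were small and moved with most choices. For T+WSD there were 12 with an adjusted p under 0.1, 4 with untransformed percent, 4 with CpGs valued in all animals, 1 with only the groups compared, and 0 with the log-ratio, levels of 5% to 95% or a prior with a trend. WSD had 0 with the log-ratio, and T had 1 with only the groups compared. The interaction had 2 with an adjusted p under 0.1, the log-ratio or no genotype-like CpGs, and 0 with untransformed percent, CpGs valued in all animals or levels of 5% to 95%. Without single animals the counts were 0 to 2 for WSD, 0 to 3 for T+WSD (0 without C 1, C 3, C 4, C 5, T 14, T 18, T+WSD 9 or T+WSD 12), 0 to 2 for the interaction and 0 to 1 for the main effect of WSD.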
